A study of Mus musculus with 32 samples.

Results

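Transcript levels of 7 genes were examined in mouse brain arteries. Their proteins have been described in the extracellular deposits that form around NOTCH3 in CADASIL, an inherited disease of small brain vessels. The genes are Timp3, Vtn, Clu, Tgm2, Bgn, Dcn, and Hspg2, and each was found by matching its symbol to 1 Ensembl identifier among the 55357 genes of the count table. RNA sequencing was done on 32 mice, 8 in each of 4 groups, with 1 library per mouse. Mice lacking Notch3 (Notch3-/-) and their Notch3+/+ littermates were 3 months old. Mice of the TgNotch3R169C line and their WT littermates were 12 months old, and this line carries a genomic transgene of rat Notch3 with the CADASIL mutation in addition to the normal mouse gene. No mouse was treated. The labels do not give the sex of a mouse, and the mutant lines were compared at different ages, each with its own controls.

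NOTCH3 is a receptor of mural cells, the smooth muscle cells and pericytes that cover small vessels. In CADASIL its extracellular domain is not cleared and gathers at the surface of these cells, and matrix proteins collect with it. The deposits are thus known from protein, and the present data concern the transcripts of the same genes. TIMP3 inhibits metalloproteinases and binds to the matrix, and TGM2 is an enzyme that crosslinks proteins. Vitronectin, the product of Vtn, is an adhesive glycoprotein that binds integrins and the plasminogen activator inhibitor PAI-1. Clusterin, the product of Clu, is a secreted chaperone that binds misfolded proteins. Biglycan and decorin, the products of Bgn and Dcn, are small leucine-rich proteoglycans that bind collagen. Perlecan, the product of Hspg2, is a large heparan sulfate proteoglycan of basement membranes.

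All 7 transcripts were abundant in every library. Levels between genes were compared per length, as TPM, a unit in which counts are divided by the exon length of each gene (from GENCODE vM21) and scaled to a common total. In Notch3+/+ mice Vtn stood at 4004 ± 192 TPM (SD, n = 8), Clu at 1380.1 ± 125 TPM, and Timp3 at 1149.9 ± 120.0 TPM. Bgn followed at 633 ± 40.7 TPM and Dcn at 619 ± 58.3 TPM, a pair that did not differ beyond the spread between mice. Tgm2 was at 319 ± 25.9 TPM and Hspg2 at 131 ± 10.3 TPM. Notch3 itself was at 38.0 ± 5.42 TPM in these mice, below every one of the 7. The order from Vtn to Hspg2 was the same in the other 3 groups, except that Dcn stood above Bgn in Notch3-/- mice (644 ± 107 against 612 ± 78.4 TPM) and in WT mice (623 ± 62.7 against 573 ± 61.4 TPM), again within the spread. In TgNotch3R169C mice Bgn stood above Dcn, at 760 ± 78.8 against 629 ± 102 TPM. Clu and Timp3 were neighbors in the order, and their group means differed by more than the larger SD in every group.

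**Figure D1:**
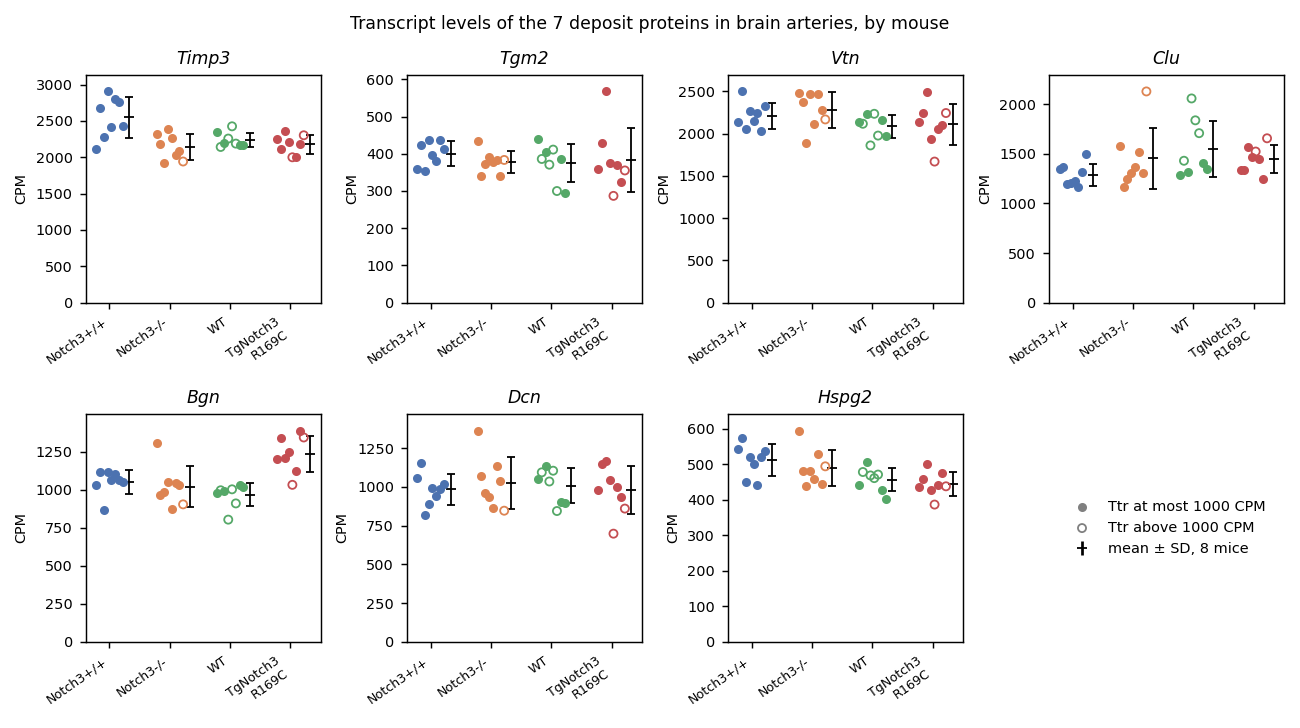
Level of each member in CPM (read counts scaled to a common library total, linear axes from 0) in the 32 libraries, 1 point per mouse, with the mean ± SD of the 8 mice of each group; open points are libraries with Ttr above 1000 CPM. Bgn is the member whose TgNotch3R169C values (1032 to 1388 CPM) all lie above the WT values (804 to 1029.9 CPM), and Clu reaches its highest values in open points.

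Library totals ran from 20289487 to 54481934 counts. Notch3 matched the labels: it was 16.2 ± 1.82 CPM in Notch3-/- against 83.6 ± 12.0 CPM in Notch3+/+ mice (SD, n = 8), and 182 ± 34.5 CPM in TgNotch3R169C against 73.2 ± 8.19 CPM in WT mice. What share of the reads of the rat transgene was counted for the mouse gene is not known. All 8 smooth muscle, 8 pericyte, and 8 endothelial markers were detected in each group. So were all 8 of the astrocyte, neuron, oligodendrocyte, and choroid plexus lists, so detection alone does not identify the tissue. The astrocyte markers summed to 1983 to 3194 CPM in Notch3+/+ mice and 2170 to 2814 CPM in WT mice. The oligodendrocyte markers summed to 835 to 1966 CPM and 1572 to 2263 CPM in the same groups. In 7 libraries the choroid plexus transcript Ttr was at or above 7895 CPM, against at most 329 CPM in the other 25. They were Notch3-/- replicate 8, TgNotch3R169C replicates 5 and 8, and WT replicates 2, 4, 5, and 6. The 7 pituitary markers measured summed to 9009 CPM in Notch3+/+ replicate 5, and to at most 782 CPM in any library of the other groups. Each group held 4 libraries with Xist at or above 1439.7 CPM and 4 at or below 2.40 CPM.

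Among the 4 comparisons, the edgeR quasi-likelihood test with Benjamini-Hochberg adjustment called 0 of the 7 members in each. The first set Notch3-/- against Notch3+/+ mice, where 0.649% of the 17714 genes tested were called, and 1 member, Timp3, had an unadjusted P below 0.05 against 7.69% of all genes. The second set TgNotch3R169C against WT mice, where 0.113% of 17731 genes were called, and 1 member, Bgn, had an unadjusted P below 0.05 against 7.27% of all genes. The third set the 2 control groups against each other, the WT mice at 12 months over the Notch3+/+ mice at 3 months, where 7.92% of 17643 genes were called. Here 4 members (Timp3, Clu, Bgn, and Hspg2) had an unadjusted P below 0.05, against 24.2% of all genes, and age and line cannot be told apart. The fourth tested whether the effect in TgNotch3R169C mice differed from that in Notch3-/- mice, where 0.35% of 18555 genes were called. In that test 2 members, Timp3 and Bgn, had an unadjusted P below 0.05, against 8.62% of all genes. The Notch3+/+ mice enter both the first and the third comparison, and the WT mice both the second and the third.

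The median log2 fold change of the 7 members was −0.04 in Notch3-/- mice, −0.04 in TgNotch3R169C mice, and −0.10 between the control groups, against medians over all genes of −0.0011, −0.0074, and 0.0026. DESeq2's Wald test, run as an alternative, called 1 member (Timp3) in Notch3-/- mice, where it called 1.57% of genes. It called 1 member (Bgn) in TgNotch3R169C mice against 0.489% of genes. Between the control groups it called 2 members (Timp3 and Hspg2) against 12.8% of genes, and for the difference between the mutants 1 member (Bgn) against 0.835% of genes.

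**Figure D2:**
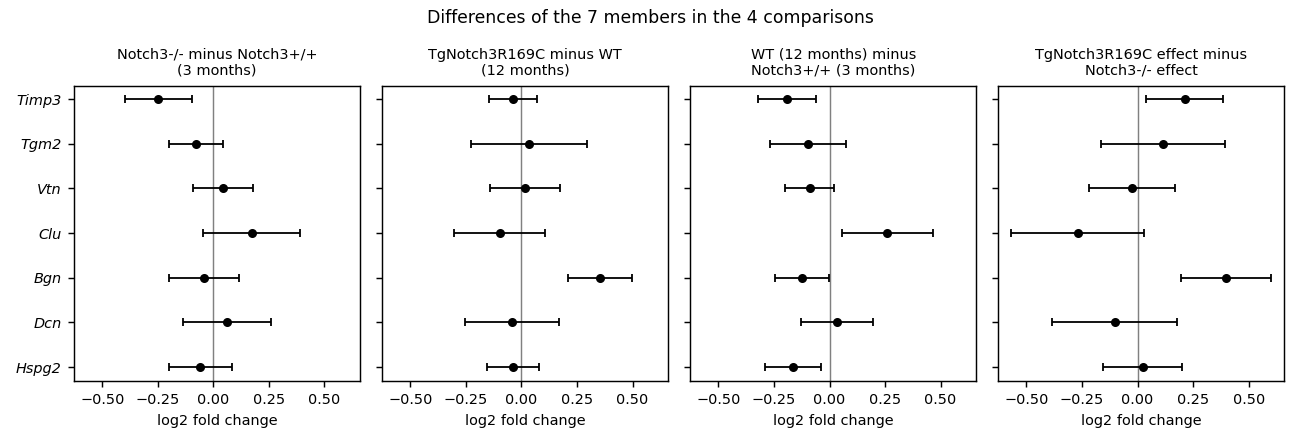
Log2 fold change of each member (points) with its 95% confidence interval (bars) from edgeR in the 4 comparisons. Intervals that leave out 0 are those of Timp3 in Notch3-/- mice, of Bgn in TgNotch3R169C mice, of Timp3, Clu, Bgn, and Hspg2 between the control groups, and of Timp3 and Bgn for the difference between the mutants.

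Timp3, the inhibitor, showed its lowest group mean in Notch3-/- mice. In Notch3+/+ mice it ran from 2118 to 2907 CPM with a median of 2551 CPM. In Notch3-/- mice it ran from 1925 to 2395 CPM with a median of 2140 CPM, so the groups overlapped. All 8 Notch3-/- mice lay under the Notch3+/+ mean and 4 of them under the lowest Notch3+/+ mouse. The means were 2143 ± 175 and 2549.8 ± 278 CPM (SD, n = 8). On the log2 scale Timp3 stood 0.25 lower (log2 fold change −0.25 ± 0.0711, SE; 95% CI −0.40 to −0.10), or at 0.842 of the control level. edgeR gave an adjusted P of 0.184 and DESeq2 one of 0.0263. All 4 groups in a single edgeR fit gave an adjusted P of 0.0353.

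Timp3 was also lower in the older control mice. WT mice ran from 2142 to 2427 CPM with a median of 2192 CPM, inside the range of the younger controls. The log2 fold change was −0.19 ± 0.0621 (SE), with adjusted P = 0.0664 by edgeR and 0.0181 by DESeq2. Leaving out Notch3+/+ replicate 1 or 3 brought the edgeR call below the threshold, with adjusted P as low as 0.0232. In TgNotch3R169C mice, which ran from 2000.4 to 2369 CPM with a median of 2199 CPM, Timp3 did not stand apart from WT mice (log2 fold change −0.04, 95% CI −0.15 to 0.07). The effects in the 2 mutants differed by 0.21 ± 0.0854 on the log2 scale (SE; edgeR adjusted P = 0.464).

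Smooth muscle transcripts were also lower in Notch3-/- mice and in the older control mice. The 8 smooth muscle markers summed to 2439 to 4361 CPM in Notch3+/+ mice and 1669 to 2607 CPM in Notch3-/- mice. In WT mice they summed to 1355 to 2111 CPM and in TgNotch3R169C mice to 1135 to 1763 CPM. Of the 8, 6 fell in Notch3-/- mice, including Myh11, the smooth muscle myosin heavy chain (log2 fold change −1.04, edgeR adjusted P = 0.000395), and Acta2, smooth muscle actin (−0.63, adjusted P = 0.0190). All 8 fell in WT relative to Notch3+/+ mice, with Acta2 at −0.93 (adjusted P = 0.000338). In TgNotch3R169C relative to WT mice all 8 were lower with 0 called by edgeR (median log2 fold change −0.23), while Timp3 was at −0.04. With the smooth muscle list as a covariate, the log2 fold change of Timp3 was −0.03 in Notch3-/- mice and 0.04 between the control groups. The list itself differs between these groups, so in this fit it cannot be told apart from genotype or age. In bulk arteries, fewer cells of a type and less RNA per cell cannot be told apart.

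Timp3 shares 1733 exon bases with Syn3 on the other strand in vM21. Syn3 averaged 3.83 CPM, and whether the counting used strand is not given in the sources used here.

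Tgm2, the crosslinking enzyme, had overlapping ranges in the 4 groups. It ran from 353 to 438 CPM in Notch3+/+ mice (median 405) and from 340 to 435 CPM in Notch3-/- mice (median 380.0). In WT mice it ran from 296 to 439.9 CPM (median 386). TgNotch3R169C mice had the widest range, 287 to 568 CPM (median 364), with both ends set by single mice, replicates 5 and 3. Its log2 fold change was −0.08 (95% CI −0.20 to 0.04) in Notch3-/- mice, 0.03 (−0.23 to 0.30) in TgNotch3R169C mice, and −0.10 (−0.27 to 0.07) between the control groups. The edgeR adjusted P was 0.863, 0.961, and 0.499. In vM21 its exons share 370 bases with Rprd1b, which averaged 38.4 CPM, and 633 bases with Gm20412, both on the other strand.

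Vtn, the most abundant member per length, was at similar levels in the 4 groups. It ran from 2031 to 2500.3 CPM in Notch3+/+ mice (median 2202) and from 1888 to 2476 CPM in Notch3-/- mice (median 2329.8). WT mice ran from 1861 to 2236 CPM (median 2127) and TgNotch3R169C mice from 1669.8 to 2497 CPM (median 2120.3). The ranges overlapped in each comparison. The log2 fold change was 0.04 (95% CI −0.09 to 0.18) in Notch3-/- mice, 0.02 (−0.14 to 0.17) in TgNotch3R169C mice, and −0.09 (−0.20 to 0.02) between the control groups. None was called by edgeR (adjusted P = 0.957, 0.970, and 0.321). The effects in the mutants differed by −0.03 (95% CI −0.22 to 0.17) on the log2 scale.

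Clu, the chaperone, followed the choroid plexus libraries. It ran from 1171 to 1495 CPM in Notch3+/+ mice (median 1269.9), in which no library had high Ttr. In Notch3-/- mice it ran from 1169 to 2131 CPM (median 1341), and the highest value was that of replicate 8, the single Notch3-/- library with high Ttr. In WT mice it ran from 1284 to 2060.0 CPM (median 1419). The 4 WT libraries with high Ttr averaged 1760.1 CPM and the other 4 averaged 1339 CPM. TgNotch3R169C mice ran from 1245 to 1658 CPM (median 1458), with the highest value in replicate 8, a high-Ttr library. Over all mice the 7 high-Ttr libraries ran from 1431 to 2131 CPM and the other 25 from 1169 to 1577 CPM, so that the sets overlapped.

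**Figure D3:**
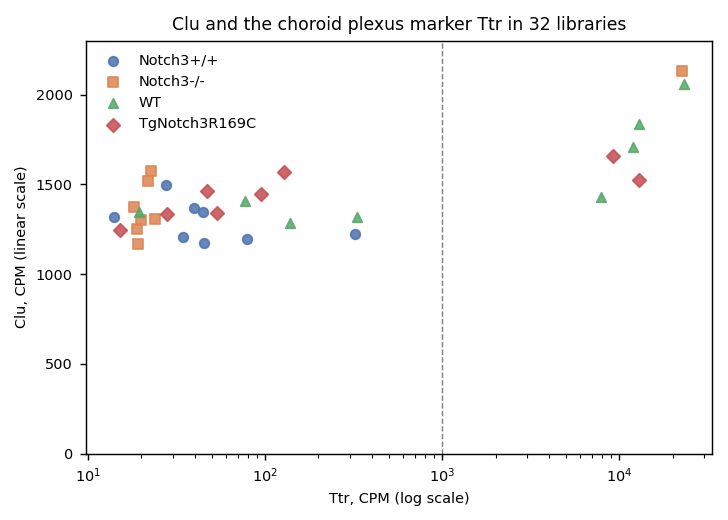
Clu in CPM (linear axis from 0) against the choroid plexus marker Ttr in CPM (log axis) in the 32 libraries, by group, with the dashed line at 1000 CPM of Ttr. The 7 libraries to the right of the line hold the 5 highest Clu values, and none of them is from a Notch3+/+ mouse.

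Between the control groups Clu was 0.26 ± 0.0964 (SE) higher on the log2 scale in WT mice, with an edgeR adjusted P of 0.105. Without the high-Ttr libraries, an alternative chosen after seeing the data, the same value was 0.05 ± 0.0678 (adjusted P = 0.729). In Notch3-/- mice the log2 fold change was 0.17 ± 0.103 (edgeR adjusted P = 0.793), and 0.08 ± 0.0708 without replicate 8. In TgNotch3R169C mice it was −0.10 ± 0.0972 (adjusted P = 0.823) with all libraries and 0.07 without the high-Ttr ones. Over all 32 libraries, after the group means were removed, Clu went with the choroid plexus list (Pearson r = 0.75, Spearman rho = 0.66, permutation P = 6.0e-05 and 0.000120, adjusted over 56 relations 0.000980 and 0.00112; r = 0.58 without the 2 libraries farthest from the median). These libraries fall into the 2 sets of high and low Ttr. Within the 25 libraries of low Ttr, no relation of Clu to the choroid plexus list was detected (Pearson r = −0.03, permutation P = 0.865; Spearman rho = 0.09, permutation P = 0.673; adjusted P over 7 members the same values; r = 0.08 without the 2 farthest libraries). The choroid plexus markers as a whole summed to 319 to 663 CPM in Notch3+/+ and 266 to 25858 CPM in WT mice, and 6 of the 8 were called higher in WT mice. Their part in the levels of Clu within the high-Ttr libraries was not tested.

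Bgn was the member with the largest difference in TgNotch3R169C mice. WT mice ran from 804 to 1029.9 CPM with a median of 993 CPM. TgNotch3R169C mice ran from 1032 to 1388 CPM with a median of 1228 CPM. In CPM every TgNotch3R169C mouse thus stood above every WT mouse, though the nearest pair differed little. TgNotch3R169C replicate 5 was at 1032.4 CPM and WT replicate 7 at 1029.9 CPM. Ranges of the groups stood apart in CPM in this way for 0.141% of the genes tested. In TPM the ranges of Bgn overlapped, with the lowest TgNotch3R169C mouse at 629 TPM and the highest WT mouse at 638 TPM. The means were 1236 ± 120.3 and 967 ± 75.2 CPM (SD, n = 8), and Bgn stood 1.28-fold higher (log2 fold change 0.35 ± 0.0679, SE; 95% CI 0.21 to 0.50).

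By edgeR the unadjusted P of Bgn was 7.64e-05 and the adjusted P was 0.0645. It ranked 21 among all genes, and the 20 genes called ended with Itih2 at an adjusted P of 0.0388. DESeq2 gave an adjusted P of 6.81e-05. RLE normalization gave 0.0394 and a single fit of all 4 groups 0.0253. Leaving out TgNotch3R169C replicate 5 or 6 also brought the call below the threshold, with an adjusted P as low as 0.00842, and leaving out other mice gave values up to 0.154. Of the 13 alternatives other than leaving out 1 mouse, 5 passed the edgeR or DESeq2 threshold. Among those that did not pass, the fit without a filter gave an adjusted P of 0.0724. The neuron covariate gave 0.0742, the choroid plexus covariate 0.0960, and the replicate block 0.158. The log2 fold change stayed between 0.30 and 0.43 under all the alternatives run.

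Bgn lies on the X chromosome. In the libraries of low Xist it averaged 1249.7 CPM in 4 TgNotch3R169C mice and 943 CPM in 4 WT mice. In those of high Xist the averages were 1222 and 991 CPM. The log2 fold change was 0.41 ± 0.0807 (SE) in the first and 0.30 ± 0.108 in the second. With 4 mice per group neither Xist subset was called by edgeR (adjusted P = 0.489 and 0.714). Without the high-Ttr libraries the log2 fold change was 0.32 ± 0.0618, and it was not called either (edgeR adjusted P = 0.179).

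In the younger mice Bgn did not show this difference. Notch3+/+ mice ran from 869 to 1117 CPM (median 1065) and Notch3-/- mice from 871 to 1306 CPM (median 1008). Their log2 fold change was −0.04 (95% CI −0.20 to 0.11; edgeR adjusted P = 0.972). WT mice were 0.13 lower than Notch3+/+ mice on the log2 scale (log2 fold change −0.13, 95% CI −0.25 to −0.0044; adjusted P = 0.189). The effects in the 2 mutants differed by 0.40 ± 0.10 (SE; 95% CI 0.19 to 0.60), with adjusted P = 0.0756 by edgeR and 0.0153 by DESeq2. Without Notch3+/+ replicate 3, Notch3-/- replicate 1, or TgNotch3R169C replicate 5 the difference passed the edgeR threshold, with an adjusted P as low as 0.0116.

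Dcn, the other proteoglycan, did not follow Bgn. It ran from 820.4 to 1155 CPM in Notch3+/+ mice (median 990.4), from 847 to 1363 CPM in Notch3-/- mice (median 999), from 845 to 1137 CPM in WT mice (median 1045), and from 699 to 1165 CPM in TgNotch3R169C mice (median 988). These ranges overlapped widely. For Dcn the log2 fold change was 0.06 (95% CI −0.13 to 0.26) in Notch3-/- mice, −0.04 (−0.25 to 0.17) in TgNotch3R169C mice, and 0.03 (−0.13 to 0.19) between the control groups. None was called by edgeR (adjusted P = 0.960, 0.936, and 0.841). A difference of the size of Bgn's in TgNotch3R169C mice lay outside the interval for Dcn in the same mice.

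Hspg2, which encodes perlecan, was lower in the older control mice, within overlapping ranges. It ran from 442 to 574 CPM in Notch3+/+ mice (median 519) and from 403 to 505 CPM in WT mice (median 464). All 8 WT mice lay under the Notch3+/+ mean and 3 under its lowest mouse. The log2 fold change was −0.16 ± 0.0589 (SE; 95% CI −0.29 to −0.04), with adjusted P = 0.0930 by edgeR and 0.0489 by DESeq2. Without Notch3+/+ replicate 6, the lowest of its group, the edgeR adjusted P was 0.0492. Notch3-/- mice ran from 437 to 594 CPM (median 481) and TgNotch3R169C mice from 386 to 501 CPM (median 439). The log2 fold changes against their own controls were −0.06 (95% CI −0.20 to 0.08) and −0.04 (−0.16 to 0.08).

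Promoter sequences were available for 4 of the 7 members (Timp3, Vtn, Bgn, and Hspg2) from RefSeq on GRCm38.p6, as the 250 bases before the start of each gene on its own strand. Those of Timp3 and Bgn are shown because these members had the smallest P in a mutant. That of Vtn is shown because it had the highest level and differs from both in base composition. All 3 are on the plus strand, and capitals mark matches on either strand to TGGGAA, the core bound by RBPJ, the DNA-binding partner of NOTCH receptors, to TATAAA, and to the GC box GGGCGG.
Timp3 (chr10:86300162-86300411): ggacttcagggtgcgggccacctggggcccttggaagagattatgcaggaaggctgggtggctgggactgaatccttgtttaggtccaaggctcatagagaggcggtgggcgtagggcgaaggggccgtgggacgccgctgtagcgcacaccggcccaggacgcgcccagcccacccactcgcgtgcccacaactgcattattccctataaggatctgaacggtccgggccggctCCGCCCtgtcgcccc
Bgn (chrX:73483351-73483600): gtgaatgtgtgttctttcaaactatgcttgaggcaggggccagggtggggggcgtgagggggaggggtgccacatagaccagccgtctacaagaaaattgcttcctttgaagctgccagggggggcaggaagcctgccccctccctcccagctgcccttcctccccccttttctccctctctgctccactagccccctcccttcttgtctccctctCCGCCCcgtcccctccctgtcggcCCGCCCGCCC
Vtn (chr11:78498870-78499119): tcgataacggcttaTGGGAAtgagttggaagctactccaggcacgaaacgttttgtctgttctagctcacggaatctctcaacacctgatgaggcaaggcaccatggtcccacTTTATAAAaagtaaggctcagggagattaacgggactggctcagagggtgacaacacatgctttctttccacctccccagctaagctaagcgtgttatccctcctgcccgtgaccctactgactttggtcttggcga
The Timp3 window held 1 GC box and 65.6% G and C, and the Bgn window 3 GC boxes and 64.4%. The Vtn window held no GC box and 50.4% G and C, with 1 match to TGGGAA and 2 overlapping matches to TATAAA. In the Hspg2 window TGGGAA had 1 match, beside 5 GC boxes, and none in those of Timp3 and Bgn. Of 32851 promoter windows of the same length, 21.6% held TGGGAA, 12.4% held TATAAA, and 32.7% held a GC box. A match of letters is a description and not a site of binding.

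Variation between mice of the same group was compared with that of the cell type marker lists. Each member's log2 CPM was set against the mean log2 CPM of each marker list over the 32 libraries after the group means were removed, with permutation within groups and Benjamini-Hochberg adjustment over 56 relations. The choroid plexus list passed by both Pearson and Spearman for Clu alone, with the values given above. In the other 7 lists, 25 of 49 relations passed by both Pearson and Spearman, 20 of them positive. Vtn, Tgm2, and Bgn each had 6 of the 25, Timp3 had 4, Dcn 2, Hspg2 1, and Clu 0. For Bgn the neuron and astrocyte lists passed narrowly, each with a Spearman permutation P adjusted to 0.04996. The share of all genes that would pass was not computed, so these counts cannot be read as a trait of the members.

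The lists with the highest r were not the same for each member, and differences between lists were not tested. Tgm2 went with the endothelial list (r = 0.70, rho = 0.71, permutation P = 7.0e-05 and 5.0e-05, adjusted 0.000980 and 0.00112), with r = 0.70 after the 2 libraries farthest from the median were left out. Vtn went with the endothelial list (r = 0.65, rho = 0.60, permutation P = 0.000310 and 0.000550, adjusted 0.00289 and 0.00413; r = 0.53 without the 2 farthest) and with the pericyte list (r = 0.64, rho = 0.67, permutation P = 0.000390 and 6.0e-05, adjusted 0.00312 and 0.00112; r = 0.67). Dcn and Hspg2 went with the fibroblast list. For Dcn r was 0.72 and rho 0.67 (permutation P = 2.0e-05 and 9.0e-05, adjusted 0.000560 and 0.00112; r = 0.61 without the 2 farthest). For Hspg2 r was 0.71 and rho 0.68 (permutation P = 1.0e-05 and 0.000120, adjusted 0.000560 and 0.00112; r = 0.64 without the 2 farthest), where 1.0e-05 is the smallest P that 100000 permutations can give. Bgn had like values with 3 lists: pericyte (r = 0.58, rho = 0.53, permutation P = 0.000590 and 0.00313, adjusted 0.00413 and 0.0146; r = 0.59 without the 2 farthest), endothelial (r = 0.56, rho = 0.56, permutation P = 0.00105 and 0.00146, adjusted 0.00490 and 0.00743; r = 0.41), and smooth muscle (r = 0.54, rho = 0.48, permutation P = 0.00199 and 0.00637, adjusted 0.00743 and 0.0222; r = 0.54).

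Timp3 went with the smooth muscle list (r = 0.62, rho = 0.61, permutation P = 0.000690 and 0.000900, adjusted 0.00429 and 0.00560; r = 0.53 without the 2 farthest) and against the neuron list (r = −0.65, rho = −0.64, permutation P = 0.000140 and 0.000110, adjusted 0.00157 and 0.00112; r = −0.60). Vtn, Tgm2, and Bgn were also negative against the neuron list by both measures. Timp3 also passed by both measures with the pericyte list (r = 0.54) and the macrophage and microglia list (r = 0.53). Bgn did so with the macrophage and microglia list (r = 0.50) and, with a negative sign, the astrocyte list (r = −0.53). The relations named for Vtn and Tgm2 are likewise not all of those that passed. The lists share libraries and total RNA, so that they are not independent of each other.

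**Figure D4:**
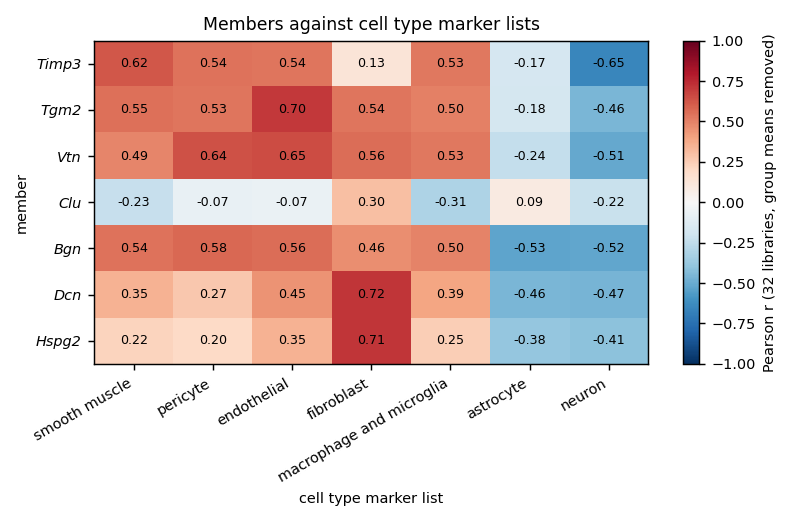
Pearson r of each member (rows) with the mean log2 CPM of 7 cell type marker lists (columns) over 32 libraries after group means were removed, from blue (−1) to red (1). Dcn and Hspg2 have their highest r with the fibroblast list, Tgm2 with the endothelial list, and Timp3 with the smooth muscle list. Vtn has near-equal r with the endothelial (0.65) and pericyte (0.64) lists. Bgn lies between 0.54 and 0.58 with smooth muscle, pericyte, and endothelial lists. Clu lies between −0.31 and 0.30 with these 7 lists, and the choroid plexus list is not drawn.

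Among the members themselves, described with no test, the closest pair over the 32 libraries, group means removed, was Dcn and Hspg2 (r = 0.71, rho = 0.65). Tgm2 and Dcn (r = 0.64), Vtn and Dcn (r = 0.63), Vtn and Tgm2 (r = 0.61), Vtn and Hspg2 (r = 0.61), and Vtn and Bgn (r = 0.60) followed. The 2 proteoglycans Bgn and Dcn had r = 0.55 but rho = 0.31. Clu had r between −0.24 and 0.32 with the other 6.

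Of 11002 genes with a mean of at least 10 CPM, those most like each member over the same 32 libraries were named by Pearson r. For Timp3 they were Ak3 (r = 0.82), Chmp3 (0.79), and Serinc3 (0.78). For Vtn they were Serping1, the C1 inhibitor (0.79), Ogn, osteoglycin (0.77), and Tfpi, the tissue factor pathway inhibitor (0.77). Serping1 was also among those of Dcn (0.83), with Medag (0.86) and Cxcl16 (0.82). For Clu they were Pcolce2 (0.91), Col4a3 (0.86), and Baiap2l1 (0.84), and for Tgm2 Vwa1 (0.82), Procr, the endothelial protein C receptor (0.81), and Cavin1 (0.78). Bgn had Cmtm3 (0.80), Sh2b3 (0.79), and Sdc1, syndecan 1 (0.79). For Hspg2 they were Loxl2, a collagen crosslinking enzyme (0.81), Col18a1, another heparan sulfate proteoglycan of basement membranes (0.77), and Samd4 (0.73). By rank some were lower, as for Bgn with Cmtm3 (rho = 0.58) and Sh2b3 (0.59) and for Tgm2 with Procr (0.64). Chmp3 with Timp3 was higher (rho = 0.84). These are descriptions of shared variation between libraries, and the highest r that other genes reach was not examined.

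Several partners of the members fell in the older control mice, a comparison in which 7.92% of all genes were called and age and line cannot be told apart. Cell type markers also differed between these groups. Their median log2 fold change was 3.95 for choroid plexus, −0.81 for smooth muscle, −0.17 for endothelial, and 0.13 for pericyte markers. The partners were not fitted without the high-Ttr libraries or with a marker list as covariate, so a part of tissue content was not tested. Of 6 other proteins described in the deposits, 5 were tested (Apcs was not), and 4 fell in WT relative to Notch3+/+ mice. They were Htra1, a serine protease (log2 fold change −0.42, edgeR adjusted P = 0.000861), Postn, periostin (−0.88, adjusted P = 0.00100), Col18a1 (−0.23, adjusted P = 0.0117), and Ltbp1, which binds latent TGF-beta (−0.48, adjusted P = 0.0295). Fn1, fibronectin, was at −0.18 (adjusted P = 0.121). Of 12 basement membrane partners of perlecan, 7 fell, led by the collagen chains Col4a2 (−0.58, adjusted P = 0.000109) and Col4a1 (−0.60, adjusted P = 0.000338), with Sparc (−0.41, adjusted P = 0.000489), and Nid1, which links laminin to collagen IV (−0.35, adjusted P = 0.000548).

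Of 10 other leucine-rich proteoglycans tested, 3 fell, Aspn (−0.71, edgeR adjusted P = 0.00517), Omd (−0.40, adjusted P = 0.00652), and Ogn (−0.24, adjusted P = 0.0143). Among 15 inhibitors and metalloproteinases related to TIMP3, Mmp2 (−0.53, adjusted P = 0.000448) and Mmp14 (−0.23, adjusted P = 0.0243) fell and Mmp9 rose (1.19, adjusted P = 0.0170). Of 10 vitronectin receptors and genes of plasminogen activation, 3 integrin subunits fell: Itgb1 (−0.41, adjusted P = 0.000420), Itgb3 (−0.38, adjusted P = 0.00517), and Itgav (−0.19, adjusted P = 0.0143). None of 9 chaperones and apolipoproteins was called, Apoe having the smallest P (0.19, adjusted P = 0.0656). None of 5 transglutaminases tested was called, Tgm5 having the smallest P (−0.61, adjusted P = 0.190). Of 8 fibroblast markers 3 fell in the same comparison, the collagens Col3a1 (−0.76, adjusted P = 0.000109), Col1a2 (−0.37, adjusted P = 0.000710), and Col1a1 (−0.41, adjusted P = 0.00174). The other 5 were not called, 2 of the 8 had a log2 fold change above 0, and the median of the list was −0.18. Whether members and partners differ in this was not tested.

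**Figure D5:**
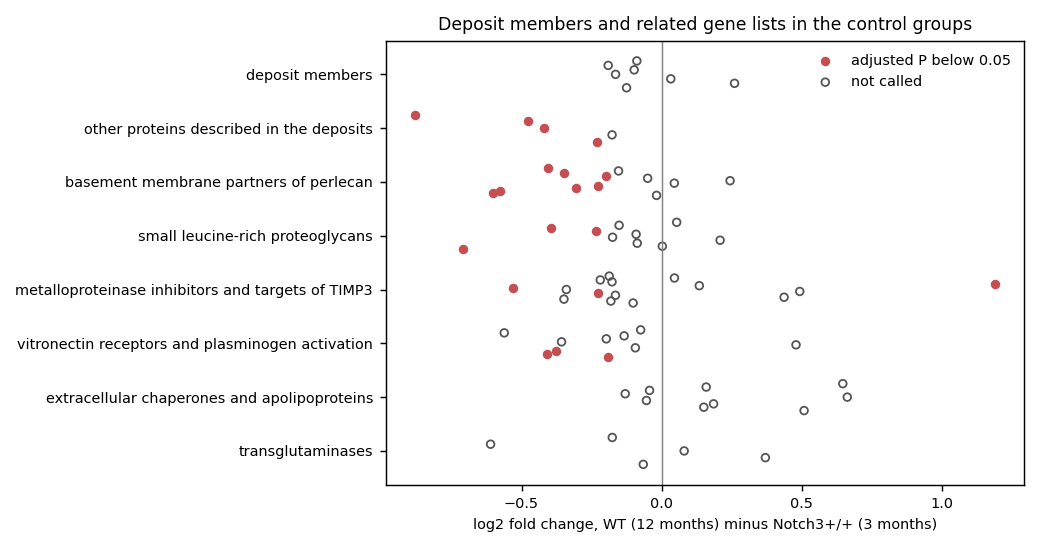
Log2 fold change of the 7 members and of the genes of 7 related lists between the control groups (WT at 12 months relative to Notch3+/+ at 3 months), 1 point per gene, filled where the edgeR adjusted P was below 0.05. No member is filled, while 4 other deposit proteins and 7 basement membrane partners of perlecan are filled on the lower side.

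In Notch3-/- mice no gene of the 7 related lists was called. The smallest P in each belonged to Postn (log2 fold change −0.55, edgeR adjusted P = 0.121), Timp4 (−0.23, 0.211), Agrn, agrin (0.14, 0.433), Chad (−0.50, 0.561), Itgav (−0.10, 0.581), Lrp2 (−1.12, 0.627), and Tgm7 (−0.31, 0.772). In TgNotch3R169C mice none was called either. Itgb5, a vitronectin receptor subunit, had a log2 fold change of 0.22 (adjusted P = 0.0971), Col4a1 one of 0.35 (adjusted P = 0.146), and Chad, chondroadherin, one of 1.36 (adjusted P = 0.216). Htra1 (0.20, adjusted P = 0.531), Tgm5 (0.74, adjusted P = 0.655), and Mmp16 (0.31, adjusted P = 0.679) had the smallest P in their lists.

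Chad alone of these lists differed between the mutant effects by edgeR (1.86 on the log2 scale, adjusted P = 0.0233). Its spread was wide in TgNotch3R169C mice, at 23.4 ± 17.9 TPM (SD, n = 8) with a range of 12.0 to 65.3 TPM. In WT mice Chad ran from 5.90 to 12.3 TPM. Col4a1 (0.47, adjusted P = 0.0531) and Itgb5 (0.26, adjusted P = 0.0600) followed, next to Bgn at 0.0756. Htra1 (0.31, adjusted P = 0.212), Tgm7 (0.59, adjusted P = 0.598), and Mmp16 (0.34, adjusted P = 0.606) had the smallest P in their lists.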

How the data were processed

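For 32 poly(A) RNA libraries of dissected brain arteries the authors deposited 1 table of raw counts, whole numbers of reads for each Ensembl gene, not normalized. The submitters' processing notes name cutadapt 1.10, Bowtie2 2.2.8, STAR 2.5.3a, HTSeq 0.6.1p1, and the build mm39. The strand setting of the counting is not given in the sources used here. Library totals ran from 20289487 to 54481934 counts. Replicates of a group differed by 10.9 to 147.9 times the counting noise (chi-square per gene), so no library was repeated within a group. Libraries of different groups were not compared in this way. The labels do not name cages or litters, and P values measure the spread between these mice.

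The tests used edgeR 4.0.16 (with limma 3.58.1, under R 4.3.3). Each comparison was fitted on its 2 groups after filterByExpr and TMM, with glmQLFit and glmQLFTest, and the difference between the mutants was the difference of both effects in a model of all 4 groups. A gene was called where its P, adjusted by Benjamini-Hochberg over all genes tested, was below 0.05, and intervals are 95% CIs from the same model. The study's methods use DESeq2, which was run here (1.42.0) as an alternative. CPM values are TMM-scaled over all libraries. TPM used exon lengths from GENCODE vM21, which is of another build (GRCm38) than the counts. Correlations used log2(CPM + 0.5) and 100000 permutations. The code was tested on simulated counts.

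The members and lists were chosen with earlier results of these data known. Genes named are the 7 members, Notch3, up to 4 genes called per list and comparison (where none was called, the one with the smallest P), and the 3 genes most like each member. Ttr, Xist, Fn1, and Itih2 were named after their values were seen. For 1 list the gene with the smallest P in 2 comparisons is not reported here. Alternatives were RLE normalization, no filter, DESeq2, marker lists or Xist as covariates, a replicate block, all groups in a single fit, a threshold of 0.1, leaving out each mouse, and, chosen after seeing the data, leaving out libraries of high Ttr and using libraries of low or high Xist alone.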

Additional observations from a re-analysis of the deposited data

Results flagged for a closer look

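In each of 4 groups the 7 members and Notch3 were examined for a mouse standing apart (32 sets of 8 mice), by dividing the distance from the highest or lowest mouse to the next by the range of the 8. In 4 sets the quotient was above Dixon's 95% critical value, where chance gives about 1.6. Clu in Notch3-/- replicate 8 was at 2131 CPM, with the next mouse at 1577 CPM (quotient 0.576), and this library has high Ttr. Bgn in Notch3+/+ replicate 3 was at 869 CPM below the next at 1034 CPM (quotient 0.664). Bgn in Notch3-/- replicate 1 was at 1306 CPM above the next at 1053 CPM (quotient 0.581), and without this mouse the difference between the mutants' effects on Bgn passed the edgeR threshold (adjusted P = 0.0116). Notch3 in TgNotch3R169C replicate 3 was at 108 CPM below the next at 168 CPM (quotient 0.538), and this mouse also had the highest Tgm2, Vtn, Dcn, Hspg2, and Timp3 of its group.

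The effects of the 2 mutants on Notch3 differed by 3.68 on the log2 scale (edgeR interaction test, adjusted P = 3.74e-17), as the genotypes fix.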

How the results depend on the processing

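The calls on members turned on the test. Counts of members called, 0 in each comparison, became 1 in Notch3-/- mice with DESeq2 and with all 4 groups in a single fit (Timp3 both times). In TgNotch3R169C mice the count became 1 (Bgn) with RLE normalization, DESeq2, the smooth muscle or the fibroblast covariate, a single fit of all groups, and a threshold of 0.1. Between the control groups it became 2 with DESeq2 (Timp3, Hspg2) and at 0.1, and 1 (Timp3) in the single fit. For the difference between the mutants it became 1 (Bgn) with DESeq2, the neuron or the fibroblast covariate, and at 0.1. Shares of all genes called are given above for the main test and for DESeq2 alone, so the other counts have no background beside them. Leaving out each mouse gave 0 in Notch3-/- mice and 0 to 1 in the other 3 comparisons. The cause was not tested.

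Whether the replicate numbers pair the mice cannot be told. Of 8 pairs of like number, 4, 4, and 3 had a correlation over 0.1 in the first 3 comparisons (−0.30 to 0.45). Pairs of unlike number were not compared. In each group replicates 1 to 4 had low Xist and replicates 5 to 8 high Xist. With the replicate block 0 members were called in each comparison, and Bgn in TgNotch3R169C mice had a log2 fold change of 0.35 (edgeR adjusted P = 0.158).

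Log2 fold changes of members whose sign turned were as follows, and none had passed the edgeR threshold with all libraries. With the smooth muscle covariate, Tgm2 became 0.057, Bgn 0.16, and Hspg2 0.0084 in Notch3-/- mice. Timp3 became 0.013 and Dcn 0.080 in TgNotch3R169C mice. Between the control groups Timp3 became 0.040, Clu −0.011, Tgm2 0.092, Bgn 0.071, and Dcn −0.038, and for the difference between the mutants Tgm2 became −0.060 and Hspg2 −0.020. With the fibroblast covariate, Dcn became −0.058 in Notch3-/- mice, Vtn −0.013 and Tgm2 −0.012 in TgNotch3R169C mice, and Vtn 0.027 and Dcn 0.0082 for the difference. With the neuron covariate, Timp3 became 0.00076 and Dcn 0.013 in TgNotch3R169C mice and Vtn 0.0071 for the difference. With the choroid plexus covariate, Vtn became −0.020, Clu 0.0016, and Tgm2 −0.020 in TgNotch3R169C mice. Without libraries of high Ttr, Clu became 0.066, Dcn 0.067, and Hspg2 0.038 in these mice. In libraries of low Xist, Bgn became 0.057 in Notch3-/- mice, Timp3 0.0040 and Dcn 0.010 in TgNotch3R169C mice, Tgm2 0.032 between the control groups, and Vtn 0.047 for the difference. In those of high Xist, Dcn became −0.0082 in Notch3-/- mice, Vtn −0.053 and Tgm2 −0.064 in TgNotch3R169C mice, and Dcn −0.089 between the control groups. Leaving out each mouse, values in TgNotch3R169C mice ran from −0.024 to 0.065 for Vtn, −0.072 to 0.090 for Tgm2, and −0.085 to 0.021 for Dcn. Those between the control groups ran from −0.0010 to 0.069 for Dcn, and those of the difference from −0.069 to 0.017 for Vtn and −0.0094 to 0.061 for Hspg2. The cause was not tested. In all, 850 member values under an alternative kept their direction and side of the threshold, 46 turned, and 21 newly passed it.

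With 8 mice per group the half-width of the 95% CIs of members ran from 0.11 to 0.26 on the log2 scale in the comparisons of 2 groups and from 0.17 to 0.30 for the difference between the mutants. A member's difference within its half-width was not detectable here, and larger ones also missed the edgeR threshold (Bgn at 0.35, Timp3 at −0.25).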

Other observations

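Whether members follow the Notch3 count was examined within the 8 TgNotch3R169C mice, as 7 relations with exact permutation tests. The transgene is of rat and the named build of mouse, so this count may miss part of the transgene transcript. None passed the adjustment. The lowest adjusted P was 0.431 by Pearson (Tgm2 r = −0.67, exact permutation P = 0.114; Spearman rho = −0.05, P = 0.935), and the Tgm2 value turned to r = 0.43 without the 2 mice farthest from the median of Notch3. Hspg2 had r = −0.63 (exact permutation P = 0.123; rho = −0.62, P = 0.115), with r = −0.18 without those mice. For Bgn r was 0.07 (exact permutation P = 0.876; rho = −0.10, P = 0.840), and a relation to Notch3 was not detectable with this number of mice.

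The transgene of this line lies on the X chromosome, as Bgn does. Of the 20 tested genes nearest to Bgn in the order of vM21, 0 were called in TgNotch3R169C mice by edgeR and 1, Nsdhl (log2 fold change 0.22, unadjusted P = 0.000201, adjusted P = 0.119), had an unadjusted P below 0.05. Their median log2 fold change was −0.01. Of 573 X-linked genes tested, 0 were called by edgeR and 44 had an unadjusted P below 0.05, with a median log2 fold change of 0.000219. DESeq2 was not read for this set apart from Bgn. Over all 17731 genes tested by edgeR in this comparison, 0.113% were called and 7.27% had an unadjusted P below 0.05. At that share a count of 0 called in sets of this size says little, and a part of chromosome position was not tested.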
